A study of Homo sapiens with 9 samples.

Results

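The hairpin shLMO2-2 was compared with the empty vector in MDA-MB-468 cells. This established line was grown from a human breast adenocarcinoma and is of the basal type. The comparison took in 6 of the 9 libraries of the study, namely 3 of cells infected with shLMO2-2 and 3 of cells infected with the empty pSicoR vector, here called control, as chosen by the plasmid named in the labels. The remaining 3 libraries came from cells infected with a second hairpin, shLMO2-1. They entered the same model, and their values stand beside those of shLMO2-2 where these are needed. Each library was made from 200000 cells, and polyadenylated RNA was sequenced in bulk. All groups carry the pSicoR backbone, and the labels name no difference between them other than the hairpin. The labels call the plasmid transfected in one place and the cells infected in another. The labels do not say whether the libraries of a group came from separate infections or cultures, so p-values measure the spread between these samples, which may be technical. The labels state neither the time after infection nor any selection of infected cells.

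A short hairpin RNA is cut by the cell's microRNA machinery into a small RNA that pairs with transcripts and lowers them. LMO2 encodes a LIM-domain protein that binds no DNA itself and bridges DNA-binding factors in transcription complexes, best known in blood stem cells and blood vessel endothelium. A hairpin named for LMO2 can therefore be followed at 3 levels of detail: the target, the single genes that moved most, and the pathways and families to which the moved genes belong.

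Values are given as CPM, the estimated counts of a gene relative to its library's normalised total. They compare libraries, not genes, since they are not divided by transcript length. Log2 fold changes compare shLMO2-2 with control and carry their standard error (SE). Adjusted p-values come from edgeR's quasi-likelihood test with Benjamini-Hochberg adjustment over the 14709 genes tested of 56809 in the table, and a gene is called at an adjusted p under 0.05. In this comparison 1320 genes were called, 8.97% of those tested. Of these, 726 (4.94%) were higher and 594 (4.04%) lower, and the median log2 fold change of all genes tested was -0.00024. With libraries scaled by total counts alone the median was -0.05, and the split turned to 568 genes higher and 833 lower (40.5% of calls higher, against 55% with TMM). Only 400 of the 1320 calls also stood in each of the fits that left out 1 of the 9 libraries. The number of genes called fell to 640 without control replicate 3, 739 without shLMO2-2 replicate 1, 494 without shLMO2-2 replicate 2 and 514 without shLMO2-2 replicate 3.

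Libraries held between 16628712 and 19385187 counts in control and between 21726879 and 23069456 in shLMO2-2. On the first principal component, which orders the libraries by their largest shared variation, control replicate 1 stood furthest out, at -42.6, against -18.2 and -20.6 for control replicates 2 and 3. The shLMO2-2 libraries stood between 9.29 and 28.9. EGFR, whose amplification marks this line, was at 6260.5, 4784 and 5369.5 CPM in control and 5558, 6486 and 5910.4 CPM in shLMO2-2 (log2 fold change 0.13, adjusted p = 0.414). RB1, a tumour suppressor that this line has lost, lay between 0.406 and 1.44 CPM in these 6 libraries. Of markers that define other cell types, 8 of 15 endothelial, 3 of 10 fibroblast and 4 of 10 immune genes passed the filter on low counts.

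LMO2 (chromosome 11, 33858576 to 33892289, minus strand, GRCh38, GENCODE 29) was barely expressed. Control libraries held 4, 35 and 19 counts of it, and shLMO2-2 libraries 1, 4 and 3 counts. This corresponds to 0.232, 1.79 and 1.004 CPM in control and 0.0435, 0.186 and 0.135 CPM in shLMO2-2, and the groups did not overlap. The log2 fold change was -3.02 (SE 0.82, adjusted p = 0.0441), and the exact permutation test over the 6 libraries gave a two-sided p of 0.1, the smallest that 3 against 3 libraries allow. The call ended without control replicate 2 or 3, shLMO2-1 replicate 1 or 2 or shLMO2-2 replicate 1, 2 or 3 (0.062 to 0.138). Among 12 tested genes of the LMO2 complex list, LMO2 included, 2 were lower and 1 higher. TCF3, which encodes the E proteins E12 and E47, fell from 196, 200.1 and 207 CPM to 163, 167 and 159 CPM (log2 fold change -0.305, SE 0.055, adjusted p = 0.00821). It stood at 225, 239.6 and 229.9 CPM in the shLMO2-1 libraries. SSBP4, a single-stranded DNA binding protein that stabilises LDB1, was higher (log2 fold change 0.44, adjusted p = 0.047), a call that ended without control replicate 1 or 3, shLMO2-1 replicate 1 or 2 or shLMO2-2 replicate 1, 2 or 3 (0.0604 to 0.144). Of 17 tested genes of hairpin and microRNA processing, XPO5, the export factor for microRNA precursors, was the single call, at 146, 145 and 149 CPM in control and 104, 112 and 113 CPM in shLMO2-2 (log2 fold change -0.42, SE 0.058, adjusted p = 0.00214).

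The 12 genes of largest change in each direction were taken among called genes whose groups did not overlap and whose mean reached 5 CPM. CSF3R, the receptor for granulocyte colony-stimulating factor, rose from 3.42, 3.54 and 3.59 CPM in the controls to 15.6, 15.1 and 16.6 CPM (log2 fold change 2.16, SE 0.12, adjusted p = 8.65e-06). RARRES1, a membrane protein first found as a retinoic acid response gene, rose from 82.7, 88.6 and 83.6 CPM to 234, 235 and 262 CPM (log2 fold change 1.52, SE 0.085, adjusted p = 8.65e-06). CA9, a cell-surface carbonic anhydrase that acidifies the surroundings of the cell, rose from 7.13, 7.28 and 8.78 CPM to 21.7, 23.3 and 24.9 CPM (log2 fold change 1.59, SE 0.11, adjusted p = 2.68e-05). The groups lay far apart in these 3 genes, and the replicates close together. BST2, which tethers budding enveloped viruses to the cell surface, reached 43.01, 42.6 and 46.4 CPM against 12.99, 16.3 and 15.01 CPM (log2 fold change 1.57, SE 0.098, adjusted p = 1.66e-05). INHBA, the beta A subunit of activin and inhibin, was at 11.1, 8.098 and 9.99 CPM in control and 24.3, 23.7 and 24.9 CPM in shLMO2-2 (log2 fold change 1.32, SE 0.13, adjusted p = 0.000273). DYSF, a membrane repair protein, stood at 3.65, 3.59 and 3.59 CPM against 8.22, 10.8 and 8.72 CPM, controls first (log2 fold change 1.35, SE 0.15, adjusted p = 0.00056). The calls of these 6 genes held under every alternative setting and without any 1 library, as did those of S100A8 and S100P, described with their family below.

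Of the 12 genes with the largest rise, 4 are not ordinary protein-coding genes, and their counts are uncertain. RPL22P1 and MTATP6P1 are pseudogenes of RPL22 and of the mitochondrial gene MT-ATP6, from which reads can be shared. RPL22P1 was at 8.58, 9.74 and 4.86 CPM in control and 22.4, 29.3 and 34.3 CPM in shLMO2-2 (log2 fold change 1.89, adjusted p = 0.00187). MTATP6P1 was at 10.6, 9.64 and 9.67 CPM in control and 23.3, 25.6 and 21.4 CPM in shLMO2-2 (log2 fold change 1.23, adjusted p = 0.000185). AL583722.2 shares exon sequence with AKT1 on the annotation and stood at 2.84, 3.54 and 0.952 CPM in control and 8.92, 13.4 and 10.2 CPM in shLMO2-2 (log2 fold change 2.14, adjusted p = 0.0113). Its call ended without shLMO2-2 replicate 2 (0.054). AC022149.1 was at 5.04, 3.33 and 2.85 CPM in control and 5.61, 13.6 and 14.8 CPM in shLMO2-2 (log2 fold change 1.605, adjusted p = 0.0383). Its call ended without control replicate 2 or 3 or shLMO2-2 replicate 2 or 3 (0.0862 to 0.133).

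At a threshold of 2-fold, 114 called genes (0.775%) were lower and 73 (0.496%) higher. PCDH19, a protocadherin of cell-cell contacts (chromosome X, 100291644 to 100410273, minus strand), fell from 14.7, 8.51 and 9.94 CPM to 0.174, 0.464 and 0.494 CPM (log2 fold change -4.85, SE 0.33, adjusted p = 2.43e-05). CA2, the cytosolic carbonic anhydrase, fell from 11.5, 12.1 and 12.2 CPM to 0.478, 1.11 and 0.539 CPM (log2 fold change -4.07, SE 0.26, adjusted p = 2.01e-05), the opposite direction to CA9. NPR3, the clearance receptor that removes natriuretic peptides, was at 33.97, 45.8 and 40.3 CPM in control and 8.65, 7.38 and 7.14 CPM in shLMO2-2 (log2 fold change -2.37, SE 0.13, adjusted p = 8.65e-06). In these 3 genes the highest shLMO2-2 library was well below the lowest control, but lack of overlap was a condition of the choice. SH3BGRL, a small thioredoxin-fold protein, stood at 10.9, 11.2 and 8.46 CPM against 1.39, 1.95 and 1.71 CPM, controls first (log2 fold change -2.59, SE 0.19, adjusted p = 3.46e-05). SLC34A2, a sodium-phosphate cotransporter of epithelia, stood at 23.8, 18.2 and 13.4 CPM against 5.001, 3.296 and 2.16 CPM (log2 fold change -2.402, SE 0.30, adjusted p = 0.00123). PRELP, a leucine-rich proteoglycan of basement membranes, stood at 8.75, 11.02 and 10.996 CPM against 2.48, 2.32 and 2.61 CPM (log2 fold change -2.05, SE 0.20, adjusted p = 0.000217). Nestin (NES), an intermediate filament protein of progenitor cells, was lower (log2 fold change -1.796, adjusted p = 0.000486), as were RAB7B, a late endosomal GTPase (log2 fold change -1.67, adjusted p = 0.000813), TDO2, which opens the tryptophan ring (log2 fold change -1.499, adjusted p = 0.000897), the growth factor BMP2 (log2 fold change -1.45, adjusted p = 0.00168) and the kallikrein protease KLK10 (log2 fold change -1.44, adjusted p = 2.68e-05). These 11 calls, and that of CTGF, the other one of the 12 and given with its family below, held without any 1 library.

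**Figure D1:**
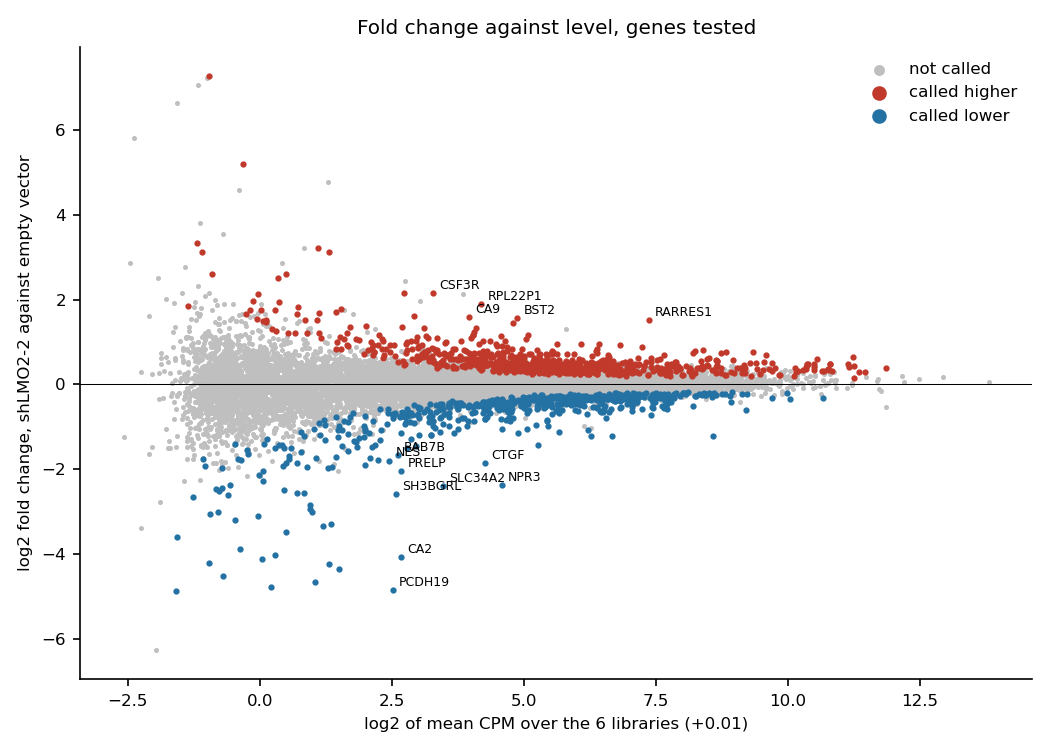
Log2 fold change of shLMO2-2 against empty vector (vertical axis) against log2 of the mean CPM over the 6 libraries (horizontal axis), each point 1 of the 14709 genes tested, with called genes in colour and part of the genes of largest change named. Calls above 5 CPM reached further down, to -4.85 for PCDH19, than up, to 2.16 for CSF3R.

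Genes were then read by pathway and family. The plot of shares by list gives, for each list with at least 4 called members, the share called higher and lower beside the 4.94% and 4.04% of all genes. Lists were described by counts and medians, with no test of the list itself, and members that failed the filter on low counts are not counted. Of all genes tested, 15.3% had every shLMO2-2 library above every control and 14.5% had every one below. Where such separation is given for called genes, it describes their libraries and is not further support for their calls.

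**Figure D2:**
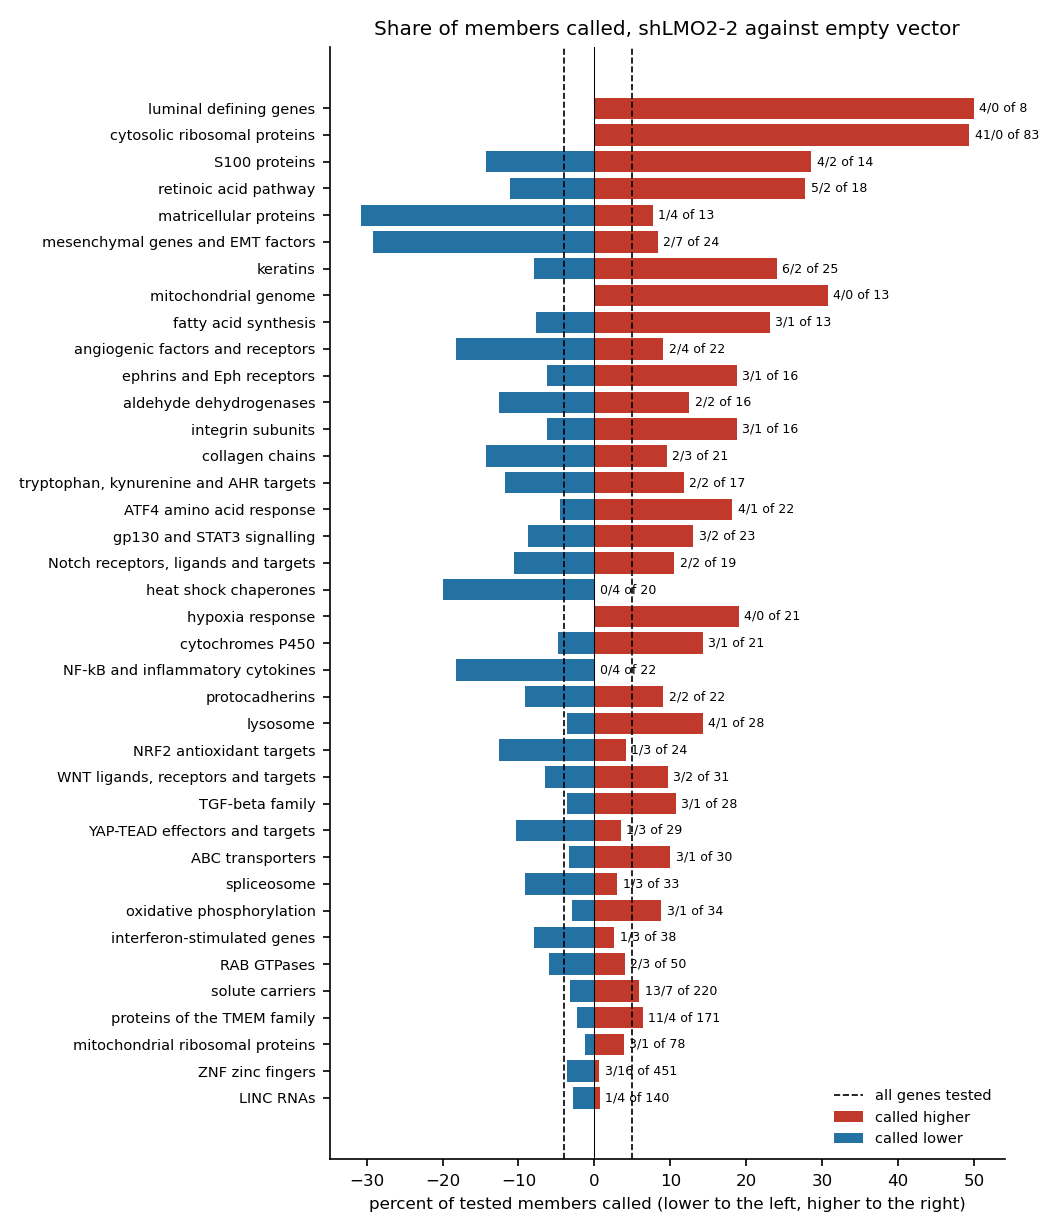
Percent of tested members called higher (right, red) and lower (left, blue) in shLMO2-2 against empty vector, for lists and families with at least 4 called members, with higher and lower counts and members tested beside each bar. Dashed lines mark 4.94% and 4.04%, the shares of all genes tested, and the cytosolic ribosomal proteins (41 of 83 higher) and luminal genes (4 of 8 higher) extend furthest to the right.

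Cytosolic ribosomal proteins build the 2 subunits of the ribosome and were the family with the most members called. Their messages belong to the class that begins with a run of pyrimidines, the 5′ terminal oligopyrimidine tract, through which growth signals control their translation. The start site windows of 6 of the called members are printed to show where such runs lie, from 20 bases before to 20 bases after the RefSeq start (GRCh38.p14), with the longest unbroken run of C and T in capitals.
RPL11, chr1:23691759-23691798, plus strand: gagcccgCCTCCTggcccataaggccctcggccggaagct
RPS29, chr14:49598691-49598730, minus strand: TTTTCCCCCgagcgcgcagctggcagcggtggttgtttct
RPL36AL, chr14:49620607-49620646, minus strand: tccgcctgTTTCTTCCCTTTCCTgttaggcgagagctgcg
RPL7A, chr9:133348198-133348237, plus strand: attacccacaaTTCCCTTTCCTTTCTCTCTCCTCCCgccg
RPS24, chr10:78033843-78033882, plus strand: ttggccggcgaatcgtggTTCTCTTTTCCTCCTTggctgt
RPL29, chr3:51995876-51995915, minus strand: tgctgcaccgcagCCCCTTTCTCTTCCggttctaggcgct
The run spanned 25 bases in RPL7A, 16 in RPS24, 15 in RPL36AL and 14 in RPL29, and covered the start in these 4. In RPS29 and RPL11 the longest runs held 9 and 6 bases and ended before the start, so these windows show no such tract at the start. RPL11 has a second RefSeq start further downstream. In the same 40 bases the letters CTCTT, on either strand, occurred in 31 of 83 RefSeq promoters of 67 tested ribosomal protein genes (37.3%) and in 9.86% of all 35116 promoters. CTTTC, which can overlap CTCTT, occurred in 43.4% and 9.74%. Among promoters of members called higher the shares were 40.0% and 42.5%, close to those of all tested members.

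Of 83 cytosolic ribosomal proteins tested, of 87 in the table, 41 were higher and 0 lower, and 82 of 83 log2 fold changes were positive. The median was 0.37. RPL11, a large-subunit protein that also binds MDM2, was at 475, 483 and 472 CPM in control and 762, 817 and 858 CPM in shLMO2-2 (log2 fold change 0.77, SE 0.078, adjusted p = 0.000298). RPS29, of the small subunit, stood at 55.7, 65.8 and 53.9 CPM in control and 102, 115 and 120.2 CPM in shLMO2-2 (log2 fold change 0.95, SE 0.11, adjusted p = 0.000795). RPL36AL was at 73.2, 80.7 and 80.9 CPM in control and 107, 111 and 112 CPM in shLMO2-2 (log2 fold change 0.49, SE 0.072, adjusted p = 0.00271). All 3 had every shLMO2-2 library above every control, as did 71 of the 83, where 15.3% of all genes tested did. With shLMO2-1, which shares the control libraries, 15 members were higher and 0 lower at a median of 0.26, where that hairpin had 8.42% of all genes called and 4.54% higher. None of the members differed between the hairpins by edgeR's quasi-likelihood test.

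The number of cytosolic ribosomal proteins called rested on single libraries more than their direction did. It was 59 without control replicate 2, and fell from 41 to 23 without control replicate 1, 15 without control replicate 3, 26 without shLMO2-1 replicate 2, 23 without shLMO2-2 replicate 1, 16 without shLMO2-2 replicate 2 and 13 without shLMO2-2 replicate 3. Over all fits that left out a library, the median log2 fold change lay between 0.26 and 0.45, and 13 members were called in every one. The family's median level per library, relative to the control mean, was -0.19, 0.17 and 0.02 on the log2 scale for control replicates 1 to 3 and 0.29, 0.32 and 0.49 for shLMO2-2. Control replicate 1, the lowest, is also the library furthest out on the first principal component, and the shLMO2-2 libraries are the deepest. In shares of all counts the family took 4.24% to 5.32% in control and 5.77% to 6.38% in shLMO2-2. Short transcripts moved with the same sign: of 5 equal classes of genes by transcript length, the shortest had a median of 0.03 and 6.46% called higher, and the longest a median of -0.05 and 3.13%. The shortest class itself held 45 of the ribosomal protein genes, and its median was 0.02 without them. The ribosomal protein transcripts had a median length of 671 bases against 1048 for all genes tested. With GC and length trends removed, 42 members were higher at a median of 0.33. Summed with the 1143 pseudogenes named for them, 43 members were higher. The part of depth, library quality and transcript length in this result was not tested beyond these values.

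**Figure D3:**
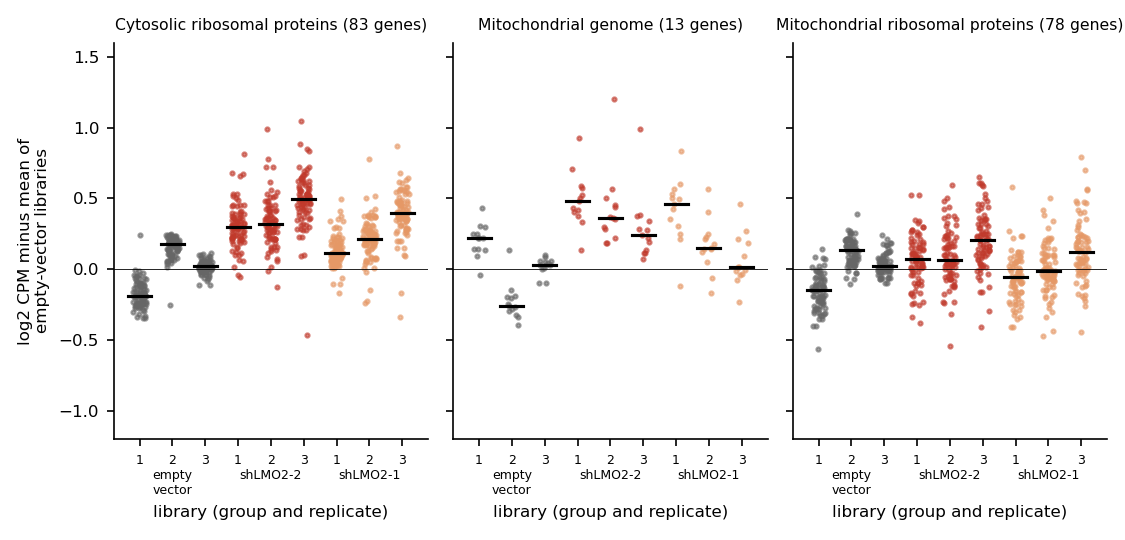
Level of each gene (points) in each of the 9 libraries, as log2 CPM minus the mean of the 3 empty-vector libraries (vertical axis), with the median as a black bar, for cytosolic ribosomal proteins, genes of the mitochondrial genome and mitochondrial ribosomal proteins. Medians of the cytosolic family lie at 0.29, 0.32 and 0.49 in shLMO2-2 and at -0.19, 0.17 and 0.02 in the empty-vector libraries, and the mitochondrial ribosomal proteins overlap more between the groups.

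The mitochondrial genome encodes core subunits of the respiratory chain, and 4 of its 13 messages were higher, with a median of 0.34 and all 13 positive. In 6 of the 13 every shLMO2-2 library lay above every control, where 15.3% of all genes tested did. The median level per library, relative to the control mean, was 0.22, -0.26 and 0.03 on the log2 scale for control replicates 1 to 3. It was 0.48, 0.36 and 0.24 for shLMO2-2, so control replicate 1 nearly reached shLMO2-2 replicate 3. In shares of all counts, genes of the mitochondrial genome took 1.33% to 1.67% in control and 1.55% to 1.79% in shLMO2-2. MT-ATP8, a subunit of ATP synthase, was at 14.8, 9.84 and 12.1 CPM in control and 22.96, 27.9 and 24.1 CPM in shLMO2-2 (log2 fold change 1.03, SE 0.15, adjusted p = 0.0029). MT-CO3, of cytochrome c oxidase, was at 1605, 1361 and 1555 CPM in control and 1985, 1922 and 1904 CPM in shLMO2-2 (log2 fold change 0.36, SE 0.061, adjusted p = 0.00564). MT-ATP8 and MT-ATP6 overlap on the genome, so their reads cannot be told apart there. The call of MT-CO2, of cytochrome c oxidase (log2 fold change 0.34, adjusted p = 0.0424), ended without control replicate 2 or 3, shLMO2-1 replicate 2 or 3 or shLMO2-2 replicate 1, 2 or 3 (0.0542 to 0.149). That of MT-ATP6 (log2 fold change 0.52, adjusted p = 0.0466) ended without control replicate 2 or 3, shLMO2-1 replicate 2 or 3 or shLMO2-2 replicate 1, 2 or 3 (0.0595 to 0.151). Of 34 nuclear genes of oxidative phosphorylation, 3 were higher and 1 lower at a median of 0.12 (11.8% called, where all genes had 8.97%). COX6C, a cytochrome c oxidase subunit, rose from 65.7, 56.99 and 57.2 CPM to 90.5, 96.6 and 100.5 CPM (log2 fold change 0.68, SE 0.078, adjusted p = 0.000733) and was called in every fit. NDUFA4, of cytochrome c oxidase (log2 fold change 0.44, adjusted p = 0.0199), lost its call without control replicate 3 (0.072), shLMO2-2 replicate 2 (0.0572) or shLMO2-2 replicate 3 (0.0833). UQCRB, of complex III (log2 fold change 0.25, adjusted p = 0.0419), lost it without control replicate 2 or 3, shLMO2-1 replicate 1, 2 or 3 or shLMO2-2 replicate 1, 2 or 3 (0.0605 to 0.157). NDUFS1, a complex I subunit and the one that was lower (log2 fold change -0.36, adjusted p = 0.0264), lost it without control replicate 3 (0.0503), shLMO2-2 replicate 2 (0.101) or shLMO2-2 replicate 3 (0.0972). Mitochondrial ribosomal proteins, with 3 of 78 higher and 1 lower, were below the share of all genes, at a median of 0.11.

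Keratins are the intermediate filaments of epithelia, expressed in pairs that differ between luminal and basal cells of the mammary gland. In 25 tested keratins of 55, 6 were higher and 2 lower, and the median was 0.21. KRT81, a hair keratin, was at 237, 268 and 229 CPM in control and 421, 408 and 458 CPM in shLMO2-2 (log2 fold change 0.81, SE 0.089, adjusted p = 0.000522). KRT8, the luminal type II keratin, was at 1705, 1999.6 and 1913 CPM in control and 2488, 2579 and 2760.2 CPM in shLMO2-2 (log2 fold change 0.48, SE 0.074, adjusted p = 0.00343), and its partner KRT18 at 983, 1231 and 1147 CPM in control and 1455, 1501 and 1719 CPM in shLMO2-2 (log2 fold change 0.48, SE 0.096, adjusted p = 0.0134). In all 3 keratins the lowest shLMO2-2 library lay above the highest control. KRT8 and KRT18 share exon sequence on the annotation and have 50 and 67 pseudogenes named for them, so their counts carry that uncertainty. KRT10, of differentiated squamous epithelium, stood at 27.9, 28.3 and 23.8 CPM against 45.5, 41.1 and 44.03 CPM, controls first (log2 fold change 0.71, SE 0.11, adjusted p = 0.00343). KRT4, of mucosal epithelium, was at 66.03, 70.01 and 72.7 CPM against 92.9, 96.9 and 99.6 CPM (log2 fold change 0.47, SE 0.077, adjusted p = 0.0047). KRT19, a small luminal keratin, was higher too (log2 fold change 0.49, adjusted p = 0.0468). The 2 lower keratins were KRT14, the basal partner of KRT5, at 21.5, 25.1 and 21.8 CPM in control and 12.7, 17.1 and 15.9 CPM in shLMO2-2 (log2 fold change -0.58, SE 0.13, adjusted p = 0.0198). KRT2, an epidermal keratin, was at 5.86, 4.41 and 4.92 CPM in control and 1.74, 2.23 and 1.98 CPM in shLMO2-2 (log2 fold change -1.35, SE 0.24, adjusted p = 0.0068). The call of KRT18 ended without shLMO2-2 replicate 3 (0.056). That of KRT19 ended without control replicate 1 or 3, shLMO2-1 replicate 1 or 2 or shLMO2-2 replicate 1, 2 or 3 (0.051 to 0.168) and that of KRT14 without control replicate 2 (0.0537), shLMO2-2 replicate 1 (0.0541) or shLMO2-2 replicate 3 (0.0523). Without 1 library, between 4 and 9 keratins were higher and between 1 and 2 lower.

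Luminal and basal identity genes were listed apart, and 6 of 8 luminal and 8 of 10 basal log2 fold changes were positive. Of 8 tested luminal genes, 4 were higher, namely KRT8, KRT18, KRT19 and AGR2, and 0 lower, at a median of 0.38. The list shares its 3 keratins with the family above, and 2 of the 8 were negative, ESR1, the estrogen receptor (log2 fold change -0.67, adjusted p = 0.114), and XBP1, a factor of secretory cells (log2 fold change -0.08, adjusted p = 0.563). AGR2, a protein disulfide isomerase of secretory epithelia, was at 6.78, 7.23 and 7.24 CPM in control and 10.96, 12.7 and 14.2 CPM in shLMO2-2 (log2 fold change 0.83, SE 0.14, adjusted p = 0.00564). The summed level of the luminal list was 3948 to 4887 CPM in control and 5744 to 6685 CPM in shLMO2-2, without overlap, and KRT8 and KRT18 make up most of it. In bulk RNA a changed share of cells of a type and a changed level per cell cannot be told apart. Of 10 basal genes, FOXC1, a forkhead factor of basal tumours, was higher (log2 fold change 0.39, adjusted p = 0.0201) and KRT14 lower, at a median of 0.13. FOXC1 lost its call without shLMO2-2 replicate 1 (0.0689) or shLMO2-2 replicate 2 (0.0861). SPDEF, an ETS factor of luminal and secretory cells outside both lists, was at 47.9, 54.7 and 53.5 CPM in control and 69.4, 73.1 and 79.5 CPM in shLMO2-2 (log2 fold change 0.51, SE 0.079, adjusted p = 0.00363). Of 20 tested ETS factors, SPDEF was the 1 called higher, and 2 were lower.

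The S100 family of small calcium-binding proteins split. Of 14 tested members of 19, 4 were higher and 2 lower. S100A8 and S100A9 form calprotectin, a dimer secreted by inflamed epithelia and neutrophils. S100A8 rose from 11.8, 13.4 and 19.4 CPM to 40.97, 38.1 and 43.2 CPM (log2 fold change 1.45, SE 0.17, adjusted p = 0.000738), and S100A9 from 185, 230.5 and 253 CPM to 344, 362 and 402 CPM (log2 fold change 0.73, SE 0.12, adjusted p = 0.00479). S100P, found in many carcinomas, rose from 5.798, 4.77 and 4.23 CPM to 11.05, 12.4 and 13.6 CPM (log2 fold change 1.33, SE 0.21, adjusted p = 0.00363). These 3 showed all shLMO2-2 libraries above all controls, which for S100A8 and S100P was a condition of their choice among the 12 genes of largest rise. S100A7, or psoriasin, was higher (log2 fold change 0.66, adjusted p = 0.0264), a call that ended without control replicate 1 or 2 or shLMO2-2 replicate 2 or 3 (0.0545 to 0.101). In the opposite direction, S100A4, associated with cell motility, fell from 186, 224 and 215 CPM to 141, 129.9 and 151 CPM (log2 fold change -0.57, SE 0.083, adjusted p = 0.00271), and S100A3 from 26.4, 35.4 and 35.7 CPM to 17.96, 17.2 and 18.9 CPM (log2 fold change -0.85, SE 0.14, adjusted p = 0.00589).

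Of mesenchymal genes and factors of epithelial-mesenchymal transition, 41 in the table, 24 were tested, 7 were lower and 2 higher. Their median was -0.05. The lower ones were mostly contractile and matrix genes. CALD1, caldesmon, which holds actin and myosin apart, was at 239, 188 and 203 CPM in control and 132, 129.8 and 121 CPM in shLMO2-2 (log2 fold change -0.72, SE 0.096, adjusted p = 0.00169). TPM1, a tropomyosin along actin filaments, was at 1146, 1192 and 1169 CPM in control and 917, 937 and 917 CPM in shLMO2-2 (log2 fold change -0.34, SE 0.048, adjusted p = 0.00236), while its paralog TPM2 rose from 11.8, 10.5 and 10.6 CPM to 17.5, 17.1 and 15.1 CPM (log2 fold change 0.599, SE 0.11, adjusted p = 0.00919). No library of either group reached into the range of the other in these genes. THBS1, TNC, AXL and TGFBI, given with the families they also belong to, and TAGLN, the actin-binding transgelin (log2 fold change -0.69, adjusted p = 0.0359), were the other lower members. LOX, which crosslinks collagen, was the other higher one (log2 fold change 0.46, adjusted p = 0.026). LOX lost its call without control replicate 3 or shLMO2-2 replicate 1, 2 or 3 (0.051 to 0.101), and TAGLN without control replicate 1, 2 or 3 or shLMO2-2 replicate 1, 2 or 3 (0.0599 to 0.122). The summed level of the list was 4093 to 4535 CPM in control and 3283 to 3416 CPM in shLMO2-2. This sum is weighted towards abundant members such as TPM1 and THBS1, while 10 log2 fold changes of the list were positive and 14 negative. Without 1 library, between 3 and 7 members were lower and between 1 and 4 higher. VIM, the defining mesenchymal filament, was not called, at 211, 236 and 227 CPM in control and 205, 204 and 219 CPM in shLMO2-2 (log2 fold change -0.102, adjusted p = 0.366). Of 35 tested epithelial junction genes, 1 was higher and 0 lower.

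Matricellular proteins are secreted into the matrix and modulate how cells attach rather than building the matrix itself. Of 13 tested members of 22, 4 were lower and 1 higher, at a median of -0.22. THBS1, thrombospondin 1, which restrains angiogenesis and activates latent TGF-beta, was at 567, 493 and 543 CPM in control and 198, 251 and 236 CPM in shLMO2-2 (log2 fold change -1.23, SE 0.091, adjusted p = 3.46e-05). CTGF (CCN2), connective tissue growth factor, was at 34.96, 28.3 and 27.2 CPM in control and 7.91, 8.49 and 8.58 CPM in shLMO2-2 (log2 fold change -1.85, SE 0.12, adjusted p = 1.66e-05). Both fell in all 3 libraries to below the lowest control. TNC, tenascin C of wound and tumour matrix, was at 102, 66.4 and 70.2 CPM in control and 53.01, 50.9 and 50.5 CPM in shLMO2-2 (log2 fold change -0.62, SE 0.13, adjusted p = 0.0181), where control replicate 1 stood above the other 2 controls. TGFBI, a matrix adaptor for integrins, was lower (log2 fold change -0.41, adjusted p = 0.0411), and WISP2 (CCN5), a CCN family member without the C-terminal domain, was higher at 0.2899, 0.82005 and 0.529 CPM against 1.48, 1.86 and 2.29 CPM, controls first (log2 fold change 1.75, adjusted p = 0.0241). The call of TNC ended without shLMO2-2 replicate 2 (0.0719) or shLMO2-2 replicate 3 (0.071). That of TGFBI ended without control replicate 1, 2 or 3, shLMO2-1 replicate 1 or shLMO2-2 replicate 1, 2 or 3 (0.0513 to 0.121) and that of WISP2 without control replicate 1 or 3 or shLMO2-2 replicate 2 or 3 (0.0623 to 0.0947).

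CTGF is a standard target of YAP and TAZ, coactivators that act through TEAD factors, which recognise the letters GGAATG. Stretches of the CTGF and THBS1 promoters (RefSeq, GRCh38.p14) are printed to show this motif, in capitals, beside the 2 strongest falls among matricellular genes.
CTGF, chr6:131951453-131951552, minus strand: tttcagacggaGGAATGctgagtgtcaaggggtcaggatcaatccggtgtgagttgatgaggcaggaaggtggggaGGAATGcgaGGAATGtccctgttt
THBS1, chr15:39580999-39581098, plus strand: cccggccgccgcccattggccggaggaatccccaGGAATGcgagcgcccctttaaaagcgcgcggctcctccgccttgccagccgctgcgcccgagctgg
The CTGF stretch ran from 180 to 81 bases before the start and held 3 matches, the first of them 169 bases before it. The THBS1 stretch ran from 80 bases before the start to 20 after it and held 1 match, 46 bases before it. GGAATG occurred on either strand within 250 bases before and 50 after the start in 14.0% of all 35116 promoters and in 11 of 34 promoters (32.4%) of 23 genes of the YAP-TEAD list found in the table. These are matches of letters, not measured binding. Of 29 tested YAP-TEAD effectors and targets, 3 were lower and 1 higher at a median of -0.02, near that of all genes. GADD45A, a stress and growth arrest gene, was at 143, 129 and 129.7 CPM in control and 97.8, 90.8 and 83.9 CPM in shLMO2-2 (log2 fold change -0.56, SE 0.082, adjusted p = 0.00276). AXL, a receptor tyrosine kinase, was lower at 3.88, 2.46 and 2.75 CPM against 0.913, 1.62 and 1.44 CPM (log2 fold change -1.19, adjusted p = 0.0289) and NT5E, the ecto-5′-nucleotidase CD73, higher (log2 fold change 0.29, adjusted p = 0.0327). These 2 calls ended without control replicate 1 or 3 or shLMO2-2 replicate 1, 2 or 3 (0.0546 to 0.0839) and without control replicate 2 or 3 or shLMO2-2 replicate 1, 2 or 3 (0.0539 to 0.125), in that order.

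Other matrix and adhesion families changed in both directions. Collagen chains had 2 of 21 tested members higher and 3 lower. COL4A5, of basement membrane collagen IV, fell from 47.7, 45.1 and 41.4 CPM to 20.5, 24.3 and 20.4 CPM (log2 fold change -1.04, SE 0.11, adjusted p = 0.0003), and COL13A1, a transmembrane collagen of adhesion sites, rose from 0.754, 0.666 and 0.7401 CPM to 2.65, 2.41 and 2.61 CPM (log2 fold change 1.82, SE 0.26, adjusted p = 0.00243). COL12A1, which decorates collagen fibrils, was higher (log2 fold change 0.67, adjusted p = 0.0219), and COL4A4 (log2 fold change -2.45, adjusted p = 0.0145) and COL4A1 (log2 fold change -1.29, adjusted p = 0.0446), further chains of collagen IV, lower at under 2 CPM. These 3 calls ended without control replicate 2 or 3 or shLMO2-2 replicate 1, 2 or 3 (0.0543 to 0.0932) for COL12A1, without shLMO2-2 replicate 2 (0.0684) for COL4A4 and without any 1 of the 9 libraries (0.0548 to 0.162) for COL4A1. Laminins, the other backbone of basement membranes, had 2 of 9 higher and 1 lower. LAMB2 was at 109, 117 and 116 CPM in control and 164, 176 and 182 CPM in shLMO2-2 (log2 fold change 0.61, SE 0.063, adjusted p = 0.000338). LAMA4 was at 50.4, 50.8 and 53.1 CPM in control and 36.1, 39.04 and 34.4 CPM in shLMO2-2 (log2 fold change -0.49, SE 0.081, adjusted p = 0.00489), again with no overlap between groups. LAMB3, a chain of laminin 332, was higher (log2 fold change 0.72, adjusted p = 0.0108), a call that ended without shLMO2-2 replicate 2 (0.0513). Among 16 tested integrin subunits, 3 were higher and 1 lower. ITGB5, the partner of integrin alpha V for vitronectin, was at 101, 113 and 109.8 CPM in control and 145, 151 and 156 CPM in shLMO2-2 (log2 fold change 0.48, SE 0.061, adjusted p = 0.00139). ITGAM, an integrin of myeloid cells, was at 4.93, 6.05 and 4.55 CPM in control and 2.04, 2.27 and 2.11 CPM in shLMO2-2 (log2 fold change -1.27, SE 0.19, adjusted p = 0.0029). ITGB4, the hemidesmosome subunit, was higher (log2 fold change 0.31, adjusted p = 0.0252) but not without control replicate 2 or 3 or shLMO2-2 replicate 2 or 3 (0.0519 to 0.11). ITGAL, an integrin of leukocytes, was higher at 0.174, 0.359 and 0.634 CPM against 1.44, 1.53 and 0.809 CPM (log2 fold change 1.66, adjusted p = 0.0443), but not without control replicate 1 or 2, shLMO2-1 replicate 1, 2 or 3 or shLMO2-2 replicate 1, 2 or 3 (0.053 to 0.146). Among 10 matrix metalloproteinases and their inhibitors, 2 were lower and 0 higher. MMP7, matrilysin, fell from 106, 115 and 108 CPM to 73.02, 65.4 and 71.3 CPM (log2 fold change -0.65, SE 0.069, adjusted p = 0.000432), and MMP20, the enamel protease enamelysin, from 4.41, 4.05 and 3.97 CPM to 1.44, 1.49 and 0.854 CPM (log2 fold change -1.71, SE 0.25, adjusted p = 0.00269).

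**Figure D4:**
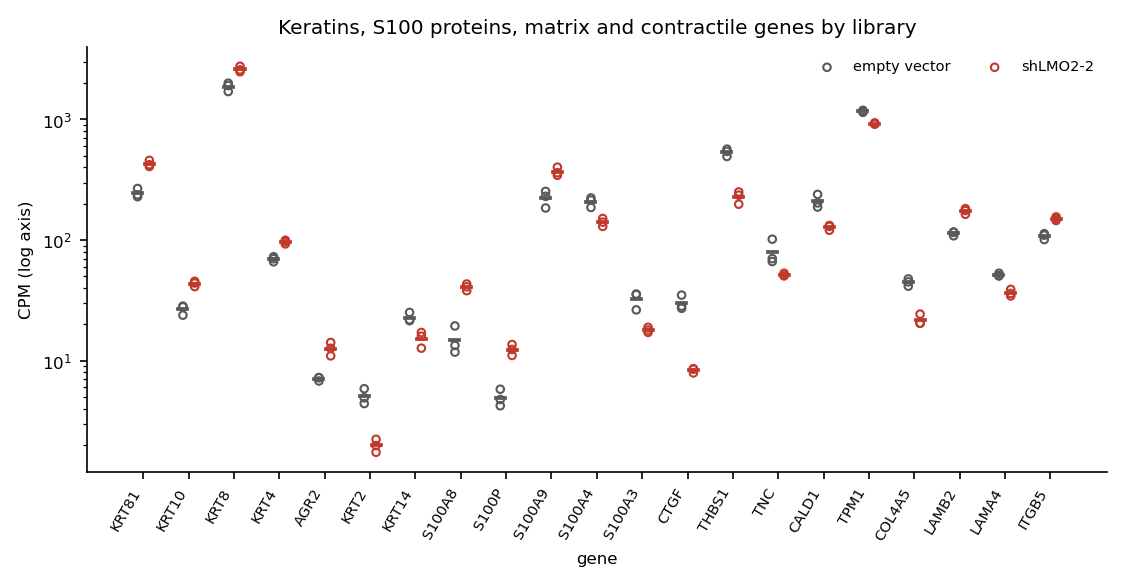
CPM on a log axis (vertical) of 21 keratin, S100, matrix and contractile genes (horizontal), with 1 circle per library and the group mean as a bar, in empty-vector (grey) and shLMO2-2 (red) cells. KRT8 lies above and CTGF and THBS1 below their empty-vector libraries, without overlap.

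Angiogenic factors and receptors had 2 of 22 tested members higher and 4 lower, of 35 in the table, at a median of -0.03. EFNB2, ephrin B2, an arterial and guidance ligand, was at 71.3, 67.9 and 86.9 CPM in control and 113, 119 and 109.5 CPM in shLMO2-2 (log2 fold change 0.595, SE 0.087, adjusted p = 0.00276). PDGFC, a platelet-derived growth factor, was at 38.6, 45.1 and 44.04 CPM in control and 59.5, 54.6 and 55.6 CPM in shLMO2-2 (log2 fold change 0.41, SE 0.077, adjusted p = 0.00938). FGF2, basic fibroblast growth factor, was low, at 4.52, 2.87 and 3.17 CPM in control and 0.304, 0.0928 and 0.899 CPM in shLMO2-2 (log2 fold change -3.001, SE 0.55, adjusted p = 0.00831), and its locus overlaps NUDT6 on the opposite strand. In none of the 3 did the groups overlap. FGFBP1, a carrier that releases FGF2 from matrix, was lower (log2 fold change -0.55, adjusted p = 0.021), as was EFNA1, a ligand of EphA receptors (log2 fold change -0.303, adjusted p = 0.0478), beside THBS1. FGFBP1 lost its call without shLMO2-2 replicate 2 (0.0803) or shLMO2-2 replicate 3 (0.0857), and EFNA1 without control replicate 1, 2 or 3, shLMO2-1 replicate 2 or 3 or shLMO2-2 replicate 1, 2 or 3 (0.0513 to 0.159). Of the Eph receptors, EPHB2, a receptor of ephrin B ligands, rose from 48.9, 39.2 and 39.7 CPM to 71.7, 72.5 and 64.02 CPM (log2 fold change 0.71, SE 0.091, adjusted p = 0.00152) and EPHB6, which lacks kinase activity, from 41.1, 38.6 and 41.8 CPM to 61.1, 59.4 and 60.8 CPM (log2 fold change 0.58, SE 0.068, adjusted p = 0.00083). In all, 3 of 16 ephrins and Eph receptors were higher and 1 lower. Among the endothelial markers, ENG, a TGF-beta coreceptor, was the single call of 8, at 19.7, 20.7 and 25.1 CPM in control and 34.96, 34.1 and 33.02 CPM in shLMO2-2 (log2 fold change 0.64, SE 0.11, adjusted p = 0.00525).

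In the list of NF-kB and inflammatory cytokine genes and that of AP-1 and immediate early genes, all calls were lower. Outside both lists, S100A8, S100A9 and LCN2 were called higher. Of 22 tested NF-kB and inflammatory cytokine genes, of 31, 4 were lower and 0 higher, and 19 of 22 log2 fold changes were negative, at a median of -0.27. With shLMO2-1 the median of this list was -0.0039 and 1 member was lower, but none of the members differed between the hairpins by edgeR's quasi-likelihood test. CSF1, the macrophage growth factor, was at 46.3, 43.3 and 45.1 CPM in control and 34.1, 30.3 and 29.5 CPM in shLMO2-2 (log2 fold change -0.52, SE 0.095, adjusted p = 0.00829). The calls of the chemokine CCL20 (log2 fold change -1.69, adjusted p = 0.0279), the NF-kB subunit NFKB2 (log2 fold change -0.46, adjusted p = 0.039) and the cytokine IL6 (log2 fold change -2.14, adjusted p = 0.0406) rested on single libraries. That of CCL20 ended without control replicate 1 or 3 or shLMO2-2 replicate 1, 2 or 3 (0.0528 to 0.101), that of NFKB2 without control replicate 1, 2 or 3, shLMO2-1 replicate 2 or shLMO2-2 replicate 2 or 3 (0.0558 to 0.134) and that of IL6 without control replicate 1, shLMO2-1 replicate 1, 2 or 3 or shLMO2-2 replicate 1, 2 or 3 (0.0547 to 0.142). Of 23 AP-1 and immediate early genes, 3 were lower. ATF3, a stress-induced repressor of the AP-1 family, was at 73.05, 65.1 and 68.7 CPM in control and 29.6, 33.1 and 32.8 CPM in shLMO2-2 (log2 fold change -1.11, SE 0.076, adjusted p = 2.43e-05). JUN, the AP-1 subunit, was at 162, 160.1 and 154 CPM in control and 118, 122 and 119 CPM in shLMO2-2 (log2 fold change -0.41, SE 0.066, adjusted p = 0.00452). KLF6, an immediate early zinc finger factor, was at 218, 198 and 196 CPM in control and 132, 147 and 145 CPM in shLMO2-2 (log2 fold change -0.53, SE 0.069, adjusted p = 0.00164). All 3 stood below every control in every shLMO2-2 library, as did 14.5% of all genes tested.

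Heat shock chaperones, which fold and refold client proteins, had 4 of 20 members lower and 0 higher, at a median of -0.11. HSP90AB1, the constitutive HSP90, was at 1769, 1832 and 1826 CPM in control and 1410.3, 1457 and 1499.9 CPM in shLMO2-2 (log2 fold change -0.31, SE 0.044, adjusted p = 0.00227). HSPA4L, an HSP110 cochaperone, was at 17.2, 17.1 and 13.1 CPM in control and 7.83, 9.28 and 7.05 CPM in shLMO2-2 (log2 fold change -0.97, SE 0.18, adjusted p = 0.00831). DNAJB4, an HSP40, was at 19.4, 18.7 and 20.2 CPM in control and 14.2, 13.6 and 12.9 CPM in shLMO2-2 (log2 fold change -0.51, SE 0.099, adjusted p = 0.0109). HSPH1, also of the HSP110 group, was lower (log2 fold change -0.41, adjusted p = 0.0222) but lost the call without control replicate 3 (0.0543), shLMO2-2 replicate 2 (0.0808) or shLMO2-2 replicate 3 (0.0868). None of the 20 genes of the unfolded protein response of the endoplasmic reticulum was called.

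Of 38 tested interferon-stimulated genes, 1 was higher, BST2, and 3 were lower (10.5% called, near the 8.97% of all genes). In 28 of them the log2 fold change was negative, at a median of -0.12. The BST2 promoter holds 2 overlapping matches to the core of the element through which interferon acts, GAAA, any 2 bases and GAAA. The stretch is shown with them in capitals, from 150 to 91 bases before the start, because BST2 was the single gene of this list that was called higher.
BST2, chr19:17405721-17405780, minus strand: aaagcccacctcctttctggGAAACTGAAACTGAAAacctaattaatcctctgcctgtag
These letters occurred on either strand in 3.57% of all 300-base promoters and in 26 of 41 promoters (63.4%) of 31 genes of the interferon list. MX1, a dynamin-like antiviral GTPase, fell from 107, 106 and 104 CPM to 88.7, 80.4 and 82.3 CPM (log2 fold change -0.34, SE 0.061, adjusted p = 0.00817), and IRF1, a transcription factor of the response, from 65.7, 65.04 and 62.2 CPM to 52.8, 50.9 and 44.5 CPM (log2 fold change -0.38, SE 0.078, adjusted p = 0.0141). IFIH1, a sensor of double-stranded RNA, was lower by less (log2 fold change -0.26, adjusted p = 0.0394). IRF1 lost its call without shLMO2-2 replicate 3 (0.0541), and IFIH1 without control replicate 2 or 3, shLMO2-1 replicate 1 or 2 or shLMO2-2 replicate 1, 2 or 3 (0.0606 to 0.114). In gp130 and STAT3 signalling, 3 of 23 members were higher and 2 lower, of which LCN2 alone held its call without any 1 library. TYK2, a Janus kinase, lost its call without control replicate 1 or 3, shLMO2-1 replicate 2 or shLMO2-2 replicate 1, 2 or 3 (0.0573 to 0.116) and with GC and length trends removed (0.177). IL11RA, a receptor that signals through gp130, lost it without control replicate 1 or 3, shLMO2-1 replicate 1 or 2 or shLMO2-2 replicate 2 or 3 (0.0526 to 0.142) and with those trends removed (0.07). IL6, the fifth, is given above. LCN2, lipocalin 2, which sequesters bacterial iron carriers, rose from 14.9, 14.5 and 15.5 CPM to 25.3, 25.9 and 36.2 CPM (log2 fold change 0.96, SE 0.13, adjusted p = 0.00214). STAT3 itself was at 443, 433 and 424 CPM in control and 365, 370.0 and 365 CPM in shLMO2-2 (log2 fold change -0.24, SE 0.051, adjusted p = 0.0164). Its call ended without shLMO2-2 replicate 1 (0.0506), shLMO2-2 replicate 2 (0.0584) or shLMO2-2 replicate 3 (0.0571).

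In the hypoxia list, 4 of 21 tested members were higher and 0 lower, at a median of 0.08, and CA9 rose most. Hypoxia-inducible factors recognise the letters ACGTG, which the CA9 promoter holds on the opposite strand, 18 bases before the start. The stretch from 60 bases before to 20 after the start is shown with these letters in capitals, read on the gene's strand as CACGT.
CA9, chr9:35673868-35673947, plus strand: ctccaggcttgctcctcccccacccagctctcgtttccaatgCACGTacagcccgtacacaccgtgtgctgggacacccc
ACGTG occurred on either strand in 21.4% of all 300-base promoters and in 15 of 25 promoters (60%) of 18 genes of the hypoxia list. The other 3 higher members moved by less: DDIT4, an inhibitor of mTORC1 (log2 fold change 0.56, adjusted p = 0.0214), LOX, named above among the mesenchymal genes, and ERO1A, an oxidase of disulfide formation (log2 fold change 0.31, adjusted p = 0.0314). DDIT4 lost its call without shLMO2-2 replicate 1 (0.0557), shLMO2-2 replicate 2 (0.0635) or shLMO2-2 replicate 3 (0.0785). LOX lost it without control replicate 3 or shLMO2-2 replicate 1, 2 or 3 (0.051 to 0.101) and ERO1A without control replicate 2 or 3, shLMO2-1 replicate 2 or shLMO2-2 replicate 1, 2 or 3 (0.0545 to 0.129). Of 20 genes of glycolysis, 2 were higher and 0 lower (10% called, near the 8.97% of all genes). They were GAPDH, the glyceraldehyde phosphate dehydrogenase (log2 fold change 0.39, adjusted p = 0.0214), and LDHA, which makes lactate (log2 fold change 0.23, adjusted p = 0.0461). GAPDH, which has 62 pseudogenes named for it, lost its call without control replicate 3 (0.0525), shLMO2-2 replicate 2 (0.0585) or shLMO2-2 replicate 3 (0.0844), and LDHA without control replicate 1 or 3, shLMO2-1 replicate 1, 2 or 3 or shLMO2-2 replicate 1, 2 or 3 (0.0574 to 0.167).

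In the retinoic acid pathway 5 of 18 tested members were higher and 2 lower, at a median of 0.04, or -0.01 with scaling by total counts alone. Retinol enters the cell through STRA6, is held by binding proteins, is oxidised by retinol and retinal dehydrogenases, and acts as retinoic acid on nuclear receptors. STRA6, the uptake receptor, was at 19.8, 22.9 and 19.6 CPM in control and 47.6, 44.4 and 48.3 CPM in shLMO2-2 (log2 fold change 1.17, SE 0.090, adjusted p = 4.28e-05). ALDH1A1, which makes retinoic acid from retinal, fell from 89.4, 96.4 and 95.4 CPM to 62.1, 63.6 and 69.9 CPM (log2 fold change -0.52, SE 0.066, adjusted p = 0.00136). STRA6 stood above and ALDH1A1 below their controls in every shLMO2-2 library. Of response genes, RARRES1 rose, as described above, and RARRES3, a phospholipase, was at 56.8, 82.3 and 75.2 CPM in control and 96.6, 103 and 113 CPM in shLMO2-2 (log2 fold change 0.54, SE 0.12, adjusted p = 0.0201). CRABP2, the carrier that brings retinoic acid to the nucleus, was higher (log2 fold change 0.27, adjusted p = 0.0385), and RDH10, a retinol dehydrogenase, was lower (log2 fold change -0.44, adjusted p = 0.0483). The call of CRABP2 ended without control replicate 1 or 3, shLMO2-1 replicate 2 or shLMO2-2 replicate 1, 2 or 3 (0.0656 to 0.141). That of RARRES3 ended without control replicate 3 (0.0505), shLMO2-2 replicate 2 (0.0672) or shLMO2-2 replicate 3 (0.0824) and that of RDH10 without control replicate 1 or 2, shLMO2-1 replicate 1, 2 or 3 or shLMO2-2 replicate 2 or 3 (0.0513 to 0.167). Without 1 library, between 2 and 5 members were higher and between 1 and 3 lower.

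Enzymes of detoxification and lipid and amino acid metabolism were called in both directions. GSTM3, a glutathione S-transferase of the mu class, fell from 116, 162 and 145 CPM to 57.4, 58.8 and 65.9 CPM (log2 fold change -1.22, SE 0.11, adjusted p = 0.000138), while GSTP1, of the pi class, rose from 27.02, 36.9 and 37.5 CPM to 63.1, 60.6 and 73.1 CPM (log2 fold change 0.95, SE 0.13, adjusted p = 0.00169). AKR1C2, a ketosteroid reductase induced by NRF2, was at 106, 111 and 112 CPM in control and 69.8, 65.6 and 76.2 CPM in shLMO2-2 (log2 fold change -0.64, SE 0.075, adjusted p = 0.000813), and was the one of 4 calls among 24 NRF2 targets, 3 lower and 1 higher, that held without any 1 library. ALDH9A1, which oxidises aminoaldehydes, fell from 90.8, 118 and 115 CPM to 65.1, 66.8 and 74.6 CPM (log2 fold change -0.65, SE 0.11, adjusted p = 0.00461). ELOVL6, which elongates palmitate, rose from 6.49, 6.15 and 6.34 CPM to 11.2, 10.4 and 10.96 CPM (log2 fold change 0.77, SE 0.11, adjusted p = 0.00269) and was the one call of fatty acid synthesis, of 4 in 13 tested genes, that held without any 1 library. Of 17 tested genes of tryptophan, kynurenine and the aryl hydrocarbon receptor, 2 were higher and 2 lower, at a median of 0.0065. The higher ones were SLC7A5 and the cytochrome P450 CYP1B1, which lost its call without control replicate 3 or shLMO2-2 replicate 1, 2 or 3 (0.051 to 0.0884). TDO2 and KYNU, which cleaves kynurenine and hydroxykynurenine, were lower, KYNU at 159, 162 and 150.1 CPM in control and 109.8, 103 and 113 CPM in shLMO2-2 (log2 fold change -0.53, SE 0.070, adjusted p = 0.00166). SLC7A5, the large neutral amino acid transporter and a target of ATF4, was at 563, 616 and 603 CPM in control and 778, 767 and 743 CPM in shLMO2-2 (log2 fold change 0.36, SE 0.055, adjusted p = 0.00323), and 4 of 22 genes of the ATF4 amino acid response were higher and 1 lower, namely ATF3. Of the higher ones, SLC7A5 alone held its call without any 1 library. PCK2, a mitochondrial carboxykinase, lost its call without control replicate 1 or 3, shLMO2-1 replicate 2 or shLMO2-2 replicate 1, 2 or 3 (0.0615 to 0.129), PSAT1, of serine synthesis, without control replicate 1 or 3, shLMO2-1 replicate 1 or 2 or shLMO2-2 replicate 1, 2 or 3 (0.0534 to 0.142) and ATF4 itself without control replicate 1, 2 or 3, shLMO2-1 replicate 1 or 2 or shLMO2-2 replicate 1, 2 or 3 (0.052 to 0.158). CTSH, a lysosomal aminopeptidase, rose from 33.1, 41.3 and 38.3 CPM to 57.3, 54.2 and 56.1 CPM (log2 fold change 0.57, SE 0.098, adjusted p = 0.00602) and was the one lysosome call, of 4 higher and 1 lower in 28 genes, that held without any 1 library. With scaling by total counts alone, 1 lysosome gene was higher and 4 lower.

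Developmental signalling families had called members in both directions. In the Notch list, 2 of 19 tested members were higher and 2 lower. The receptor NOTCH1 was at 84.2, 73.3 and 86.9 CPM in control and 106, 119 and 117 CPM in shLMO2-2 (log2 fold change 0.48, SE 0.078, adjusted p = 0.00445). NOTCH3 was at 705, 701 and 861 CPM in control and 926, 1013 and 1001 CPM in shLMO2-2 (log2 fold change 0.38, SE 0.078, adjusted p = 0.0152), while the ligand JAG1 fell from 174, 148 and 160.5 CPM to 115, 96.8 and 98.8 CPM (log2 fold change -0.64, SE 0.092, adjusted p = 0.00269). With GC and length trends removed, the adjusted p of NOTCH1 was 0.073, and NOTCH3 lost its call without shLMO2-2 replicate 2 (0.0707) or shLMO2-2 replicate 3 (0.0596). HEY2, a repressor induced by Notch, was lower at 3.42, 3.79 and 4.76 CPM against 2.09, 1.95 and 1.62 CPM, controls first (log2 fold change -1.08, adjusted p = 0.0376), but not without control replicate 2 or 3 or shLMO2-2 replicate 1, 2 or 3 (0.0621 to 0.129). In the WNT list, 3 of 31 members were higher and 2 lower. WNT10A, a ligand of skin appendages and mammary epithelium, fell from 6.55, 10.3 and 9.57 CPM to 3.17, 4.36 and 4.36 CPM (log2 fold change -1.15, SE 0.21, adjusted p = 0.00881). NKD1, a feedback inhibitor of WNT signalling, was higher (log2 fold change 0.52, adjusted p = 0.014), a call that ended without shLMO2-2 replicate 2 (0.0673). Without 1 library the WNT list had between 0 and 3 members higher and between 1 and 2 lower, and WNT10A held in every case. In the TGF-beta family, 3 of 28 members were higher and 1 lower, with INHBA and BMP2, both given above, as the members of largest change in each direction. The other higher ones lost their calls, BMP1, a procollagen protease, without control replicate 1 or 3 or shLMO2-2 replicate 1, 2 or 3 (0.051 to 0.111) and the ligand BMP7 without control replicate 1 or 2, shLMO2-1 replicate 2 or shLMO2-2 replicate 2 or 3 (0.0558 to 0.12). None of the 16 tested BMP and SMAD feedback targets was called. In the protocadherins, PCDHGB5 rose from 22.8, 20.7 and 24.4 CPM to 34.3, 36.95 and 35.6 CPM (log2 fold change 0.66, SE 0.10, adjusted p = 0.00387) where PCDH19 fell, but genes of the gamma cluster share their last exons, so reads may be divided among them.

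Of 220 tested solute carriers, 13 were higher and 7 lower (9.09% called, where all genes had 8.97%), and 8 of these 20 calls held without any 1 library. The transporter of glutamate SLC1A6, which is a brain gene in normal tissue, was at 485, 655 and 615 CPM in control and 906, 888 and 1027 CPM in shLMO2-2 (log2 fold change 0.68, SE 0.11, adjusted p = 0.00367), and the choline transporter SLC44A2 at 1146, 1281 and 1271 CPM in control and 1643, 1623 and 1676 CPM in shLMO2-2 (log2 fold change 0.42, SE 0.052, adjusted p = 0.00109). In 50 RAB GTPases, the switches of vesicle traffic, 2 were higher and 3 lower (10% called, near the 8.97% of all genes). All 5 calls held without any 1 library. RAB34, of Golgi and cilium traffic, rose from 13.04, 16.7 and 14.8 CPM to 29.6, 33.005 and 34.997 CPM (log2 fold change 1.13, SE 0.11, adjusted p = 0.000298), and RAB15 from 34.9, 35.3 and 33.9 CPM to 58.8, 59.3 and 59.03 CPM (log2 fold change 0.77, SE 0.066, adjusted p = 8.78e-05). Zinc finger genes named ZNF had 3 of 451 higher and 16 lower (4.21% called), at a median of -0.09, with 299 negative. Of 33 spliceosome genes, 1 was higher and 3 lower, all 3 of the serine- and arginine-rich splicing factors: SRSF11 fell from 167, 153 and 162 CPM to 128, 123 and 113 CPM (log2 fold change -0.41, SE 0.067, adjusted p = 0.00489) and SRSF6 from 240.5, 253 and 231 CPM to 192, 191 and 183 CPM (log2 fold change -0.36, SE 0.065, adjusted p = 0.00828), and SRSF7 was lower as well (log2 fold change -0.36, adjusted p = 0.0122), but not without shLMO2-2 replicate 2 (0.0559). Of the cell cycle genes, 0 of 43 of DNA replication were higher and 2 lower (4.65% called), with 34 negative at a median of -0.05. Of mitosis genes, 0 of 39 were higher and 3 lower (7.69% called), with 28 negative at a median of -0.12. Both shares called were below the 8.97% of all genes. Without control replicate 1 the lower calls numbered 5 and 11. Without control replicate 3, shLMO2-2 replicate 2 or shLMO2-2 replicate 3, 1 mitosis gene was lower. MCM3, of the replicative helicase, was at 246, 249.5 and 267 CPM in control and 205, 206 and 201 CPM in shLMO2-2 (log2 fold change -0.32, SE 0.054, adjusted p = 0.00567). TTK, the spindle checkpoint kinase, was at 104, 105 and 109.5 CPM in control and 82.6, 84.7 and 83.8 CPM in shLMO2-2 (log2 fold change -0.34, SE 0.062, adjusted p = 0.00849). No member was called of Hedgehog signalling, the BCL2 family, classical cadherins, FGF receptors, metallothioneins or HOX factors, with 8, 18, 5, 5, 4 and 19 members tested.

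The hairpins share their control libraries, so a difference between them was tested directly, shLMO2-2 against shLMO2-1. In that contrast 113 genes were called (0.768%), of which 51 (0.347%) were higher in shLMO2-2 and 62 (0.422%) lower. The number called was 239 without control replicate 1, 75 without control replicate 3, between 38 and 72 without 1 shLMO2-1 library and between 40 and 62 without 1 shLMO2-2 library. Among genes also called against control, the 5 of largest difference in each direction are given. They were limited to genes whose shLMO2-2 libraries overlapped neither control nor shLMO2-1. THBS1 stood at 567, 493 and 543 CPM in control, 198, 251 and 236 CPM in shLMO2-2 and 529, 601 and 572 CPM in shLMO2-1 (difference -1.31 on the log2 scale, SE 0.091, adjusted p = 0.000115). PCDH19, at 4.4996, 3.69 and 3.69 CPM in shLMO2-1, lay between its control and shLMO2-2 levels (difference -3.38 on the log2 scale, SE 0.35, adjusted p = 0.00117). TNC, at 122, 120.3 and 111 CPM in shLMO2-1, was above control with that hairpin (log2 fold change 0.57, adjusted p = 0.0256) and below it with shLMO2-2 (difference -1.19 on the log2 scale, SE 0.13, adjusted p = 0.00174). THBS1 and TNC are both matricellular, but separation between the hairpins was a condition of their choice here. Of 13 tested matricellular genes, 3 were called lower in shLMO2-2 than in shLMO2-1 and 0 higher. THBS1 with shLMO2-1 overlapped its controls. LINC01235, a long noncoding RNA, was at 13.8, 13.1 and 15.8 CPM in shLMO2-1 against 5.83, 5.802 and 5.62 CPM in shLMO2-2 (difference -1.31 on the log2 scale, SE 0.14, adjusted p = 0.00154). P3H2, a collagen prolyl hydroxylase, was at 10.5, 11.02 and 13.6 against 5.65, 4.87 and 4.31 CPM (difference -1.24 on the log2 scale, SE 0.15, adjusted p = 0.00346). The calls of TNC and P3H2 against control ended without shLMO2-2 replicate 2 (0.0719) or shLMO2-2 replicate 3 (0.071) and without control replicate 3 (0.0507), shLMO2-2 replicate 2 (0.0518) or shLMO2-2 replicate 3 (0.0526), in that order.

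In the other direction, ALPP, placental alkaline phosphatase, stood at 25.3, 28.8 and 35.3 CPM in control, 51.4, 51.2 and 45.4 CPM in shLMO2-2 and 27.8, 26.6 and 26.8 CPM in shLMO2-1 (difference 0.86 on the log2 scale, SE 0.11, adjusted p = 0.00481). Its paralogs ALPPL2 and ALPI lie close in sequence, so its counts are uncertain. OLFML3, a secreted olfactomedin-like protein, was at 68.9, 54.3 and 55.99 CPM in control, 116, 103 and 100.5 CPM in shLMO2-2 and 68.1, 73.3 and 65.9 CPM in shLMO2-1 (difference 0.62 on the log2 scale, SE 0.096, adjusted p = 0.0127). GALNT12, which starts O-linked glycans, was at 5.22, 4.36 and 4.34, 9.09, 9.52 and 9.03 and 5.57, 5.92 and 5.27 CPM in the same order (difference 0.72 on the log2 scale, SE 0.13, adjusted p = 0.0362). In these 3 genes every shLMO2-2 library lay above every library of both other groups, but separation from each group was a condition of the choice. KRT10, given above with the keratins, was at 45.5, 41.1 and 44.03 CPM in shLMO2-2 and 29.1, 24.6 and 32.3 CPM in shLMO2-1 (difference 0.603 on the log2 scale, SE 0.11, adjusted p = 0.0332). CRISP3, a cysteine-rich secretory protein, was below control with both hairpins, at 75.7, 77.1 and 78.2 CPM in shLMO2-2 and 45.2, 44.1 and 45.5 CPM in shLMO2-1 against 108, 112 and 108 CPM (difference 0.78 on the log2 scale, SE 0.058, adjusted p = 0.00013). It fell by less with shLMO2-2 than with shLMO2-1. The test of the difference lost its call for GALNT12 without control replicate 3 or any 1 shLMO2-1 or shLMO2-2 library (adjusted p 0.0573 to 0.162). For OLFML3 it did so without any 1 shLMO2-1 library or shLMO2-2 replicate 1 or 2 (0.0628 to 0.0759), and for KRT10 without shLMO2-1 replicate 1 or 2 or any 1 shLMO2-2 library (0.0946 to 0.163).

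**Figure D5:**
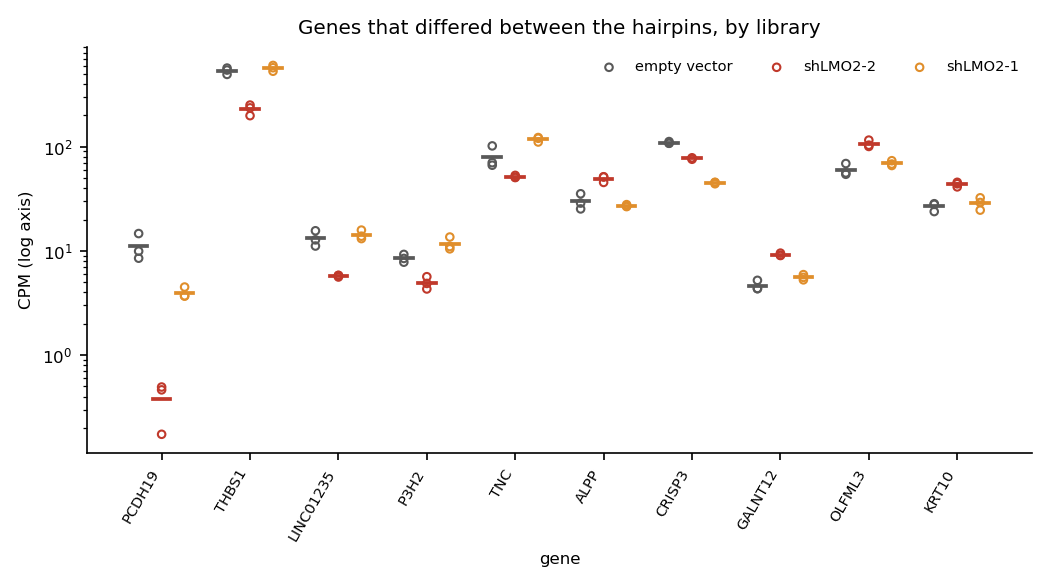
CPM on a log axis (vertical) of the 10 genes that differed most between the hairpins among those called in shLMO2-2 against control (horizontal), with 1 circle per library and the group mean as a bar, in empty-vector (grey), shLMO2-2 (red) and shLMO2-1 (orange) cells. THBS1 is low only in shLMO2-2, and CRISP3 is lowest in shLMO2-1. The genes were limited to those whose shLMO2-2 libraries overlapped neither other group.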

How the data were processed

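RNA-seq of 9 MDA-MB-468 libraries, 3 per plasmid, was available as 1 table from the authors, with estimated counts for each gene. The submitters' processing notes name Salmon 0.12, DESeq2 1.22.2 and GRCh38.p12 without their roles, and strand setting, annotation and read filters are not given in the sources used here. Gene symbols were matched to GENCODE 29. Groups came from the plasmid in the labels. Counts were rounded, scaled by TMM and filtered (filterByExpr, minimum count 10, minimum total 15), which left 14708 genes, with LMO2 added back. edgeR 4.0.16 (R 4.3.3) fitted all 9 libraries with 3 groups, and the quasi-likelihood test with Benjamini-Hochberg adjustment over all genes was called at 0.05. Alternatives used limma 3.58.1, DESeq2 1.42.0 and other scalings, filters and sets of libraries. Simulated on 14708 genes at the depth of this comparison, the test recovered 53% of 100 genes changed by 0.5 and 96% of 100 changed by 1 (log2), with 10 false calls. The changed genes were drawn from those above 5 CPM, so recovery at lower levels, such as that of LMO2, was not tested. The simulated libraries held no shared replicate effect.

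The comparison, gene lists and families were chosen with earlier results of these data known. Families were limited to protein-coding genes, and the pattern for integrins was corrected, after the data were seen. Named genes were LMO2, the 12 of largest change each way among called genes without overlap whose mean reached 5 CPM, the 5 of largest difference between hairpins each way, and up to 4 called members of smallest p each way per list described. CRABP2, TAGLN, EGFR, RB1, VIM and the low-level genes of the closing observations fall outside that rule and were chosen after their values were seen, as were the members whose start windows are printed. No 2 libraries of the same group agreed within counting noise (chi-square per gene 5.18 to 29.5 over 11937 genes). Promoter sequences are from RefSeq (GRCh38.p14), matched by symbol, with 67 of 83 tested ribosomal protein genes found. Some results are not reported here.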

Additional observations from a re-analysis of the deposited data

How the results depend on the processing

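The number of genes called in shLMO2-2 against control was 1320, and was 776 when only the groups compared were fitted, 390 at an adjusted p under 0.01 and 187 at a fold change of at least 2. Without 1 library it lay between 494 and 1243. Scaling by upper quartiles, by median ratios or by totals alone, limma-voom, DESeq2, no filter on low counts and a minimum of 10 counts gave between 1265 and 1895, as did removal of GC and length trends and summing of ribosomal protein genes with their pseudogenes, both chosen after seeing the data. Between the hairpins 113 genes were called, and 378 without the filter on low counts, 316 with DESeq2, 189 with only the groups compared, 46 at an adjusted p under 0.01, 17 at a fold change of at least 2 and 38 to 239 without 1 library. LMO2 missed the threshold with limma-voom (log2 fold change -2.67, adjusted p = 0.0928) and with only the groups compared (-3.03, adjusted p = 0.062), and its log2 fold change lay between -3.48 and -2.32 without 1 library. Scaling by totals alone turned the split of called genes from 726 higher and 594 lower to 568 and 833. No log2 fold change of a called named gene reversed its sign under these settings. Of 256 named genes that were called, 128 were called under every setting and 126 lost the call without at least 1 library. The cause was not tested.

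Replicate numbers are shared between groups, but same-numbered control and shLMO2-2 libraries did not deviate together in every pair (r = 0.234, -0.063 and 0.140 for numbers 1, 2 and 3, across genes), and control replicate 2 correlated best with shLMO2-2 replicate 3 (r = 0.182). Some families moved with the number in every group. Summed metallothionein levels of replicates 1 to 3 were 132, 496 and 1123 CPM in control. They were 160, 655 and 938 CPM in shLMO2-2 and 147, 311 and 842 CPM in shLMO2-1. The cytosolic ribosomal protein median was lowest in replicate 1 of each group. The YAP-TEAD median was highest for replicate 1 within control (0.134) but lowest for it within shLMO2-2 (-0.062). The main model held no replicate term. With the replicate block the count of calls was 2377 against control and 257 between the hairpins. Depth limits genes near the filter: 1 count is worth 0.0435 CPM in shLMO2-2 replicate 1.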

Other observations

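By gene type in GENCODE 29, processed pseudogenes were called higher in 12 of 104 tested (11.5%) and lower in 1, at a median log2 fold change of 0.28. For 12862 protein-coding genes the shares were 5.33% higher and 4.42% lower. Antisense genes had 14 of 613 higher and 7 lower, and lincRNAs 5 of 455 higher and 5 lower. Reads of processed pseudogenes can be shared with their parent genes, among them the ribosomal protein genes described above, and the strand setting of the counting is not known for antisense genes.

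Several genes with a mean under 5 CPM were nearly silent in shLMO2-2 and are given as levels. RNF128, a ubiquitin ligase, was at 2.43, 2.46 and 1.797 CPM in control and 0.1305, 0.0464 and 0.0449 CPM in shLMO2-2 (edgeR's quasi-likelihood test, adjusted p = 0.000206), with shLMO2-1 at 0.844, 0.8205 and 0.659 CPM. CNKSR2, a scaffold of RAS signalling, was at 4.696, 3.895 and 3.33 CPM in control and 0.174, 0.139 and 0.135 CPM in shLMO2-2 (adjusted p = 8.35e-05) and at 0.506, 0.234 and 0.593 CPM in shLMO2-1, with no call between the hairpins. SOSTDC1, a secreted antagonist of BMP and WNT ligands, was at 1.102, 1.23 and 1.16 CPM in control and 0.08698, 0 and 0.0449 CPM in shLMO2-2 (adjusted p = 0.00131), while shLMO2-1 libraries held 0.8999, 0.762 and 0.989 CPM. VGLL3, a cofactor of TEAD factors, was at 8.75, 2.82 and 4.599 CPM in control and 0.261, 0.418 and 0.0899 CPM in shLMO2-2 (adjusted p = 0.00137), with control replicate 1 above the other controls and shLMO2-1 at 0.44997, 0.762 and 1.05 CPM. CSF2RA, a receptor subunit for granulocyte-macrophage colony-stimulating factor, was at 2.15, 2.56 and 3.01 CPM in control and 0.261, 0.279 and 0.135 CPM in shLMO2-2 (adjusted p = 0.000738), in the opposite direction to CSF3R, with shLMO2-1 at 1.35, 0.703 and 0.791 CPM. CYGB, cytoglobin, was higher, at 0.464, 0.359 and 0.264 CPM against 1.696, 1.2997 and 1.303 CPM, controls first (adjusted p = 0.00775), and at 1.63, 2.34 and 1.71 CPM in shLMO2-1. All 6 genes were chosen among called genes whose shLMO2-2 libraries did not overlap the controls, so that separation was a condition of the choice.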
